A study of Mus musculus with 24 samples.

Results

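Sox17 was introduced into amniotic cells that had already been converted towards endothelium, and the RNA of these Sox17-RACVECs was set against that of the RACVECs from which such cells are made. The comparison rests on 6 of the 24 libraries of the series, 3 of Sox17-RACVECs and 3 of RACVECs. RACVECs are mouse amniotic fluid cells (MACs) of C57BL/6J embryos of stages E11.5 to E13.5, converted in culture with lentiviruses that carry the Ets transcription factors Etv2, Erg and Fli1, in endothelial medium with an inhibitor of Tgf-β signalling. Sox17-RACVECs are described as RACVECs that were in addition infected with a Sox17 lentivirus and selected with puromycin, though their libraries did not all hold the Ets factors. No such selection is described for RACVECs, so Sox17 and selection cannot be told apart here. The column name of RACVEC 3 holds Flk1 and GFP+, which those of the other RACVECs do not, and whether that culture was sorted is not stated. Embryos of a litter were pooled, and the study takes a separately isolated culture of MACs as a replicate. Whether the 3 Sox17-RACVEC libraries come from separate isolates is not stated. Akt-RACVECs, which carry constitutively active Akt in place of Sox17, and Akt-LECs, which are cultured adult lung endothelial cells (ECs) with the same Akt construct, served as points of reference. All values are FPKM, fragments scaled to transcript length and library size, summed over the RefSeq transcripts of a gene.

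Sox17 belongs with Sox7 and Sox18 to the SoxF group of transcription factors, which bind DNA through an HMG box. In vessels Sox17 is known for its part in arterial identity and in the haemogenic endothelium of the embryo. Elsewhere it is a factor of the definitive endoderm. Etv2, Erg and Fli1 switch on and maintain the endothelial programme, of which the surface proteins Pecam1 (CD31), Kdr (Vegf receptor 2) and VE-cadherin (Cdh5) are the usual markers. Amniotic fluid cells are largely of a mesenchymal and epithelial kind, and collagens and small proteoglycans are typical of the mesenchymal cells among them.

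The introduced genes were examined first. Sox17, on chromosome 1 from 4481009 to 4486494 (mm9), was listed at 0 in each RACVEC library and at 5.09, 40.1 and 200.1 FPKM in Sox17-RACVECs 1, 2 and 3. The groups therefore did not overlap, but the Sox17-RACVEC libraries differed widely in how much Sox17 they held. Sox17 was also present in Akt-RACVECs, at 12.01, 83.5 and 82.2 FPKM, and in Akt-LECs, at 24.5, 42.2 and 63.97 FPKM, and it was listed at 0 in all 3 libraries of MACs. Reads of the vector and of the endogenous gene cannot be told apart in these values.

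Etv2 had 859.9, 301 and 659 FPKM in RACVECs 1, 2 and 3 and 458, 0 and 378 FPKM in the Sox17-RACVECs, so that the library labelled Sox17-RACVEC 2 lacked it. Erg had 3.91, 13.8 and 0.9 FPKM in RACVECs and 4.49, 387 and 0 FPKM in Sox17-RACVECs. Erg was thus high in the library labelled Sox17-RACVEC 2, at the level of the Akt-RACVECs (395, 1002 and 418 FPKM), and low or absent in the other 5 libraries. Etv2, however, was present in every Akt-RACVEC library. Fli1 had 178, 229 and 257 FPKM in RACVECs and 315, 434 and 272 FPKM in Sox17-RACVECs (log2 fold change 0.61, standard error, SE, 0.73, limma adjusted p = 0.901). Fli1 was expressed in all 6 libraries, and each Sox17-RACVEC lay above each RACVEC, the lowest by little.

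**Figure D1:**
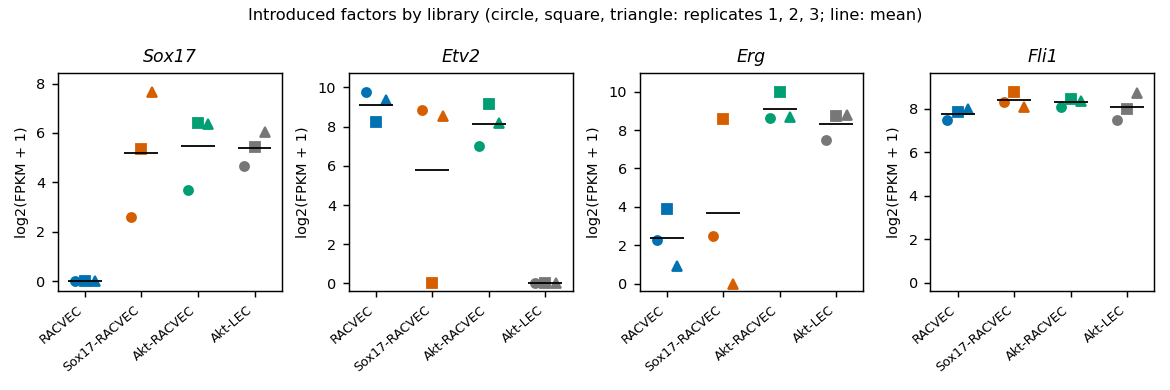
FPKM of Sox17, Etv2, Erg and Fli1 in each library, on the y axis as log2(FPKM + 1), for RACVECs, Sox17-RACVECs, Akt-RACVECs and Akt-LECs on the x axis. Circles, squares and triangles are replicates 1, 2 and 3 and the lines are group means. Sox17 is at 0 in the 3 RACVEC libraries, and the square of Sox17-RACVEC 2 lies at 0 for Etv2 and among the Akt-RACVECs for Erg.

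Across all genes, Sox17-RACVECs 1 and 3 were closest to each other (Pearson's r = 0.984 between libraries on log2(FPKM + 1), given as a description). Their next neighbour was RACVEC 2, with r = 0.978 for both, whereas RACVEC 2 reached 0.955 with RACVEC 1 and 0.958 with RACVEC 3. The library labelled Sox17-RACVEC 2 was closest to Akt-RACVEC 3 (r = 0.983) and reached 0.928 with each of the other Sox17-RACVECs. Xist, expressed from the inactive X chromosome of female cells, had 174, 220.4 and 191 FPKM in RACVECs and 97.3, 0 and 234 FPKM in Sox17-RACVECs. The Y-linked genes Ddx3y, Eif2s3y, Kdm5d and Uty were above 0 in RACVECs 1 and 3 and at 0 in RACVEC 2 and in every Sox17-RACVEC library. The libraries thus differed in sex-linked RNA, and the library labelled Sox17-RACVEC 2 had neither Xist nor Y-linked RNA. The part of the sex of the cells in the results was not tested, and results are given with and without the library labelled Sox17-RACVEC 2 and, where it mattered, RACVEC 2.

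**Figure D2:**
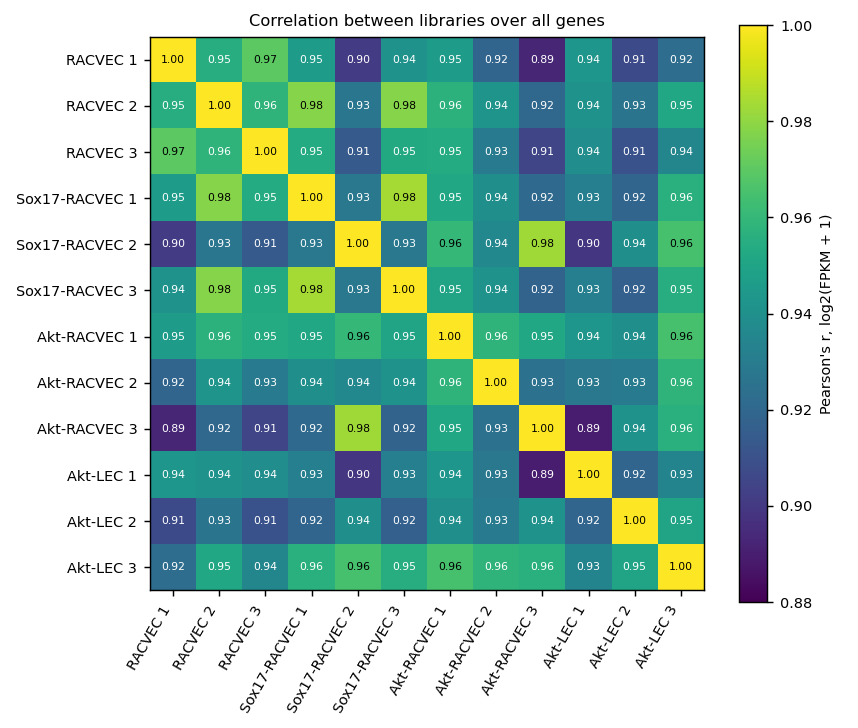
Pearson's r between libraries over all genes on log2(FPKM + 1), with libraries on both axes and r given by colour and number. Sox17-RACVECs 1 and 3 reach 0.98 with each other and with RACVEC 2, and the library labelled Sox17-RACVEC 2 reaches 0.98 with Akt-RACVEC 3.

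Of 22282 genes in the files, 13124 had a mean FPKM of at least 1 over the 6 libraries and were tested. A gene was called where its adjusted p in limma was under 0.05 and the groups differed by more than 1 on the log2 scale. No gene, Sox17 included, was called higher in Sox17-RACVECs (0.0%) and 1 gene was called lower (0.00762%). Without adjustment, 196 genes (1.49%) were higher and 503 (3.83%) lower at a p below 0.05 and past the same fold. The criterion of the study's methods, a ratio of averaged FPKM past 2 with an unadjusted p, passed 50 genes higher and 101 lower of the 14772 above 0. It was applied here to FPKM summed per gene, with a pseudocount of 1. Both counts are smaller than those the study reports for this comparison. All 3 Sox17-RACVEC libraries lay above all 3 RACVEC libraries for 597 genes (4.55%) and below them for 927 genes (7.06%). For 120 genes (0.914%) the unadjusted p, the fold and the lack of overlap were all met with higher values, and for 348 genes (2.65%) with lower values. Of all genes tested 45.2% had a positive and 54.8% a negative log2 fold change, with a median of -0.05. Genes above 0 numbered 13700, 13478 and 13647 in RACVECs 1, 2 and 3 and 12978, 12412 and 13129 in the Sox17-RACVECs. Of the genes tested, 270 were at 0 in all Sox17-RACVECs and 37 in all RACVECs. Of the 348 lower genes 53 were at 0 in all Sox17-RACVECs, and of the 120 higher genes 4 in all RACVECs. The part of detection or depth in these counts was not tested. In bulk cultures, fewer cells of a type and less RNA of a gene per cell cannot be told apart.

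Without the library labelled Sox17-RACVEC 2, 7 genes (0.0533%) were called higher and 3 (0.0229%) lower, and 196 (1.49%) and 374 (2.85%) passed without adjustment. Without RACVEC 2, 19 genes (0.145%) were called higher and 36 (0.274%) lower, and 289 (2.2%) and 723 (5.51%) passed without adjustment. Among the 348 lower genes RACVEC 2 was the lowest RACVEC library for 233 (67.0%), against 30.7% of all genes tested. Among the 120 higher genes RACVEC 2 was the highest RACVEC library for 75 (62.5%), against 34.9% of all genes tested. RACVEC 2 thus lay nearer to the Sox17-RACVECs than the other RACVECs did in both directions. Calls made without RACVEC 2 therefore leave out the nearest RACVEC, which widens the difference between the groups, and they are not independent support. In the 120 higher genes the library labelled Sox17-RACVEC 2 was the highest Sox17-RACVEC in 78, against 34.1% of all genes tested.

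The called gene was Crp, C-reactive protein, a pentraxin of the acute phase made mainly by the liver. Crp, on chromosome 1 from 174628187 to 174630097 (mm9), had 41.8, 34.8 and 12.7 FPKM in RACVECs 1, 2 and 3 and was listed at 0 in every Sox17-RACVEC, Akt-RACVEC and MAC library (adjusted p = 0.000927 in limma for Sox17-RACVECs against RACVECs). Crp kept its call without the library labelled Sox17-RACVEC 2 (adjusted p = 0.00286) and lost it with a pseudocount of 10, with a minimum mean of 10 FPKM and in fits of the 2 groups alone.

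Of the genes the study names for the action of Sox17 in these cells, 7 are described, and because the study chose them on these samples they are not independent evidence. In all 7 the groups did not overlap, 3 with higher and 4 with lower values in Sox17-RACVECs, and none was called. Among all genes tested 4.55% and 7.06% lay so. Pecam1, an adhesion protein of EC junctions on chromosome 11 from 106515531 to 106611942 (mm9), had 84.1, 155 and 15.3 FPKM in RACVECs and 586, 5144 and 714 FPKM in Sox17-RACVECs. The log2 fold change was 4.43 (SE 0.94, adjusted p = 0.222), and 3.43 without the library labelled Sox17-RACVEC 2, in which Pecam1 was as high as in Akt-RACVECs (3649, 6524 and 4132 FPKM). Without RACVEC 2 Pecam1 was called (log2 fold change 5.12, adjusted p = 0.0338). Kdr, the main receptor for Vegfa, had 97.1, 206 and 179 FPKM against 366, 883 and 374 FPKM (log2 fold change 1.69, SE 0.62, adjusted p = 0.527). Col18a1, the basement membrane collagen that contains endostatin, had 113, 283 and 93.02 FPKM against 1401, 2072 and 982 FPKM (log2 fold change 3.29, SE 1.02, adjusted p = 0.434).

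Grem1, a secreted antagonist of Bmps on chromosome 2 from 113586321 to 113598803 (mm9), leads the 4 lower genes here. Grem1 had 242, 236 and 183 FPKM in the RACVECs and 0, 0 and 0.81 FPKM in the Sox17-RACVECs. Its log2 fold change was -7.49 (SE 2.17, adjusted p = 0.383) in the fit of all 8 groups. In a fit of these 2 groups alone Grem1 was called (adjusted p = 0.00426), and it was again called there without the library labelled Sox17-RACVEC 2 (log2 fold change -7.35, adjusted p = 0.0261). Gas1, a surface protein that assists hedgehog reception, had 225, 20.4 and 62.7 FPKM in RACVECs and 0.67, 0 and 0 FPKM in Sox17-RACVECs. The stromelysin Mmp3, a matrix protease, had 1699, 16.6 and 529.9 FPKM against 2.62, 0 and 2.76 FPKM, so RACVECs themselves spanned a wide range. Notch2, a Notch receptor, had 28.8, 23.3 and 34.9 FPKM against 11.6, 7.44 and 12.7 FPKM (log2 fold change -1.39, SE 0.65, adjusted p = 0.648). Adjusted p was 0.262 for Gas1 and 0.571 for Mmp3. In Akt-RACVECs these 4 genes had 59.7, 0 and 0 FPKM for Grem1, 5.32, 1.21 and 0 FPKM for Gas1, 342, 8.6 and 0 FPKM for Mmp3 and 9.72, 6.75 and 3.87 FPKM for Notch2.

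**Figure D3:**
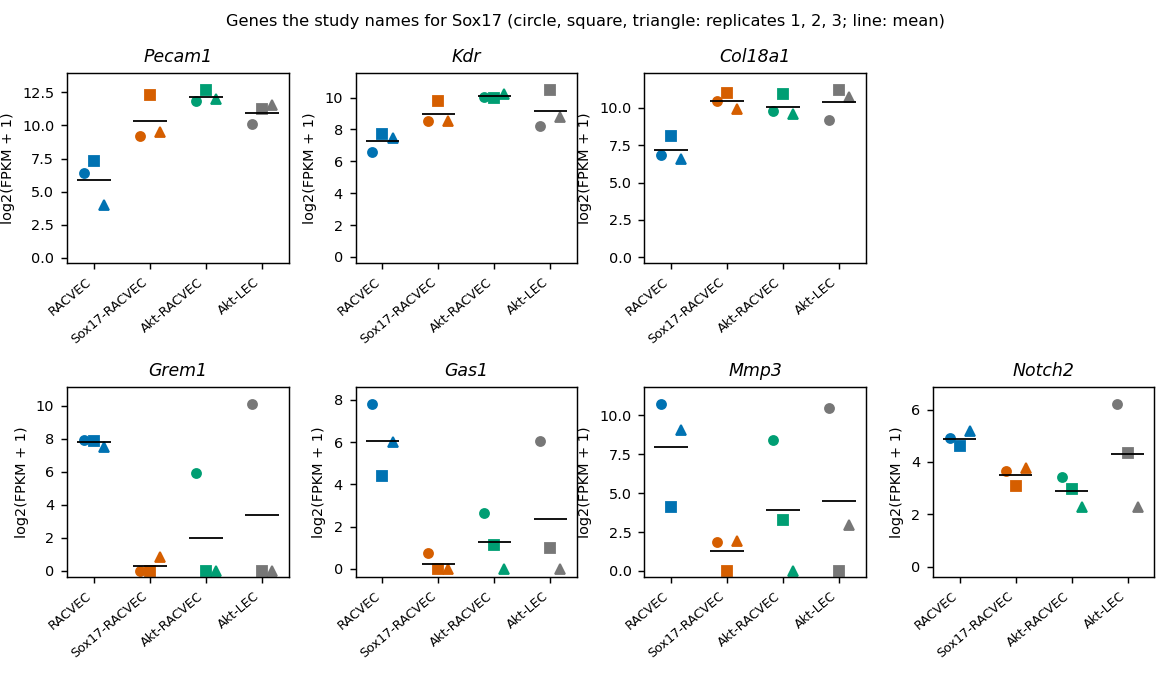
FPKM of 7 genes the study names for Sox17, on the y axes as log2(FPKM + 1), in RACVECs, Sox17-RACVECs, Akt-RACVECs and Akt-LECs on the x axes. Circles, squares and triangles are replicates 1, 2 and 3 and the lines are group means. In the upper row every Sox17-RACVEC lies above every RACVEC, and in the lower row every Sox17-RACVEC lies below every RACVEC.

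Because Sox17 and the Ets factors bind DNA, the RefSeq promoters of the genes that differed (GRCm38.p6, not the mm9 build of the files) are described for 2 short motifs, read on both strands in the 250 bases before a start. These were the Sox core ACAAT, which is ATTGT on the other strand, and the Ets core CGGAAG or AGGAAG, and the 2 do not overlap each other in the promoters shown. The Sox core was in 27.7% of all 32851 promoter windows and in 18.5% of those of the genes tested. For the Ets core these shares were 39.2% and 45.6%. Of the genes listed below as higher, 10 were in the promoter table with 18 windows, of which 3 (16.7%) held the Sox core and 5 (27.8%) the Ets core. Of those listed as lower, 11 were in the table with 13 windows, of which 3 (23.1%) held the Sox core and 5 (38.5%) the Ets core. These are descriptions of a few windows, and a match is not a binding site. Both motifs were in 9.43% of all windows and in 7.81% of those of the genes tested. They were in 1 window (5.56%) of the genes listed as higher and 1 (7.69%) of those listed as lower. Ttc9 and Mmp3, one with higher and one with lower values in Sox17-RACVECs, each held both motifs in a single promoter, as did Ifitm6 of the lower genes. Mmp3 is one of the genes the study names and is shown for that. They are shown with the motifs in capitals, on the plus strand at chr12:81630999-81631248 and chr9:7445572-7445821. Crp, shown as the called gene, held neither in its window on the plus strand at chr1:172697806-172698055.
Ttc9: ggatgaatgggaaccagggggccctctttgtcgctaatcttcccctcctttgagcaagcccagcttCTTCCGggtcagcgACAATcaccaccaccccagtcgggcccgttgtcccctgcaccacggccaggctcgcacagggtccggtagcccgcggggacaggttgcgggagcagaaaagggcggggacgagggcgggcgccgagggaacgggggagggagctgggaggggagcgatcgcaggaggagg
Mmp3: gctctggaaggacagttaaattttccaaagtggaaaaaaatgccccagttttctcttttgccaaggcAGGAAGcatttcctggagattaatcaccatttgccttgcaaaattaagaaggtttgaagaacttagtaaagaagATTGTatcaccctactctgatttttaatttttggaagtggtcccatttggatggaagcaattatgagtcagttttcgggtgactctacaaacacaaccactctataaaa
Crp: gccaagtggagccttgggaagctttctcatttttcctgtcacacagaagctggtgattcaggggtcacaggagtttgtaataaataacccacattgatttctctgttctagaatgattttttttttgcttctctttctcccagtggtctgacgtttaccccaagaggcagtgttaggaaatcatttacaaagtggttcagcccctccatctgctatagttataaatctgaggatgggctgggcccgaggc

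The 14 genes with higher values were taken in order of p among those past the fold whose libraries did not overlap, and none of them was called. Ttc9, a tetratricopeptide repeat protein on chromosome 12 from 82732356 to 82765928 (mm9), led them with 159, 122 and 245 FPKM in RACVECs and 674, 764 and 614 FPKM in Sox17-RACVECs. Its log2 fold change was 2.01 (SE 0.38, adjusted p = 0.164) and 1.93 without the library labelled Sox17-RACVEC 2. Ttc9 had 506, 792 and 449 FPKM in Akt-RACVECs and 25.1, 11.3 and 14.4 FPKM in MACs. Tmem184b had 204, 274 and 318 FPKM against 561, 539.9 and 604 FPKM, a small difference with little spread (log2 fold change 1.12, SE 0.23). Ampd3, an AMP deaminase, had 61.7, 36.04 and 107 FPKM against 258, 194 and 269 FPKM (log2 fold change 1.92, SE 0.39). In these 3 genes the library labelled Sox17-RACVEC 2 lay close to the other Sox17-RACVECs.

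Some of the other genes are known from endothelium and early blood. Tal1, a bHLH factor of the haemangioblast and of blood stem cells, had 5.5, 2.71 and 8.77 FPKM in RACVECs and 81.4, 85.97 and 23.5 FPKM in Sox17-RACVECs (log2 fold change 3.18, SE 0.71, adjusted p = 0.234). Myct1, an EC membrane protein, had 61.5, 726 and 96.9 FPKM against 1675, 979 and 911 FPKM, with RACVEC 2 close to the Sox17-RACVECs, and it was called when RACVEC 2 was left out (adjusted p = 0.0125). She, an adaptor protein with an SH2 domain, had 24.9, 92.2 and 41.4 FPKM against 212, 469 and 154 FPKM. Klhl4 had 1.88, 4.7 and 1.55 FPKM against 27.2, 187 and 48.6 FPKM. Hip1r, which links clathrin coats to actin, had 5.8, 17.6 and 21.3 FPKM against 47.9, 124 and 73.7 FPKM. In these genes the Sox17-RACVECs lay above all RACVECs, and the library labelled Sox17-RACVEC 2 was the highest for She, Klhl4 and Hip1r. Thrb, a thyroid hormone receptor, had 3.72, 5.13 and 0.75 FPKM against 25.9, 11.7 and 25.1 FPKM. Vsig2 had 4.57, 23.4 and 11.3 FPKM against 65.7, 46.04 and 127 FPKM. The non-coding transcript NR_028332 had 1.84, 6.65 and 1.1 FPKM against 14.1, 21.9 and 12.5 FPKM. These genes were low in RACVECs. Amy1, an amylase with near-identical copies that make its value uncertain, was listed at 0 in each RACVEC and had 135, 4.65 and 7.54 FPKM in Sox17-RACVECs. For Tal1 and the genes after it adjusted p lay between 0.222 and 0.262.

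The genes with lower values, chosen in the same way, included several secreted proteins. Slit3, a guidance ligand of Robo receptors, had 89.4, 46.2 and 60.2 FPKM in RACVECs and 0, 0 and 0.28 FPKM in Sox17-RACVECs (log2 fold change -5.88, SE 1.12, adjusted p = 0.164). Slit3 was called in the fit of the 2 groups alone and without RACVEC 2. Lox, which cross-links collagen, had 279.9, 38.7 and 70.2 FPKM against 0.73, 0 and 0 FPKM. Cp, the copper carrier ceruloplasmin, had 157, 57.4 and 48.3 FPKM against 4.02, 5.86 and 3.98 FPKM. Rspo2, which amplifies Wnt signals, had 52.5, 8.69 and 4.86 FPKM and was listed at 0 in all Sox17-RACVECs. Rarres2, the chemerin precursor, had 74.7, 7.79 and 98.7 FPKM in RACVECs and was listed at 0 in the Sox17-RACVECs, as were Gfra4 (6.02, 3.4 and 7.74 FPKM in RACVECs) and Ifitm6 (46.6, 16.5 and 15.8 FPKM in RACVECs).

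Ero1a, an oxidase of the endoplasmic reticulum, had 3262, 1073 and 2953 FPKM in RACVECs and 255, 347 and 347 FPKM in Sox17-RACVECs (log2 fold change -2.79, SE 0.65, adjusted p = 0.234), and its Sox17-RACVEC values lay close together. Tmem119, a membrane protein of bone-forming cells and microglia, had 173, 79 and 140.0 FPKM against 19.5, 3.1 and 10.3 FPKM. Cd80, a co-stimulatory ligand, had 15.2, 12.2 and 38.9 FPKM against 1.38, 0 and 0 FPKM. Fndc3c1 had 87.9, 23.9 and 93.99 FPKM against 0, 0 and 2.15 FPKM, with an adjusted p of 0.164 in limma. Gm266 had 15.3, 9.01 and 8.55 FPKM against 2.18, 0 and 0 FPKM. In these genes the RACVEC values were all above those of the Sox17-RACVECs. The selenium-binding proteins Selenbp1 and Selenbp2 are near copies whose reads may be shared. Selenbp1 had 242, 316 and 70.1 FPKM against 14.1, 57.9 and 6.79 FPKM. Selenbp2 had 35.3, 55.9 and 19.02 FPKM against 3, 10.99 and 1.44 FPKM. Selenbp2 was called without the library labelled Sox17-RACVEC 2 (log2 fold change -3.47, adjusted p = 0.0223). Akt-RACVECs lay near RACVECs for both, with 115, 448 and 118 FPKM of Selenbp1 and 19.4, 77.8 and 23.3 FPKM of Selenbp2. Apart from Crp, adjusted p of the lower genes lay between 0.164 and 0.262.

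**Figure D4:**
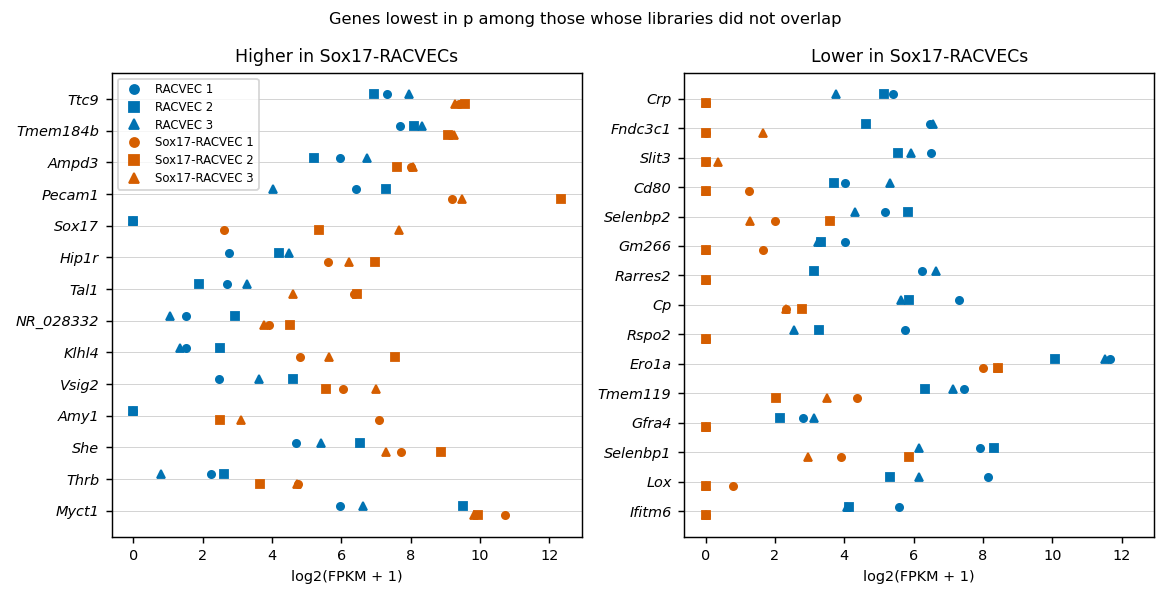
FPKM of the 14 genes with higher values (left) and the 15 with lower values (right) in Sox17-RACVECs, on the x axes as log2(FPKM + 1), in the 3 RACVEC and 3 Sox17-RACVEC libraries, with genes on the y axes in order of p. Points at 0 lie on top of each other. RACVEC 2, the blue square, is the RACVEC nearest to the Sox17-RACVECs for Pecam1, Myct1 and She, and Crp, Rarres2, Rspo2, Gfra4 and Ifitm6 are at 0 in every Sox17-RACVEC.

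Gene lists are described by counts and medians only, beside the shares over all genes given above. Medians without the library labelled Sox17-RACVEC 2 follow in brackets. Of 32 endothelial surface and junction markers, 29 had a positive log2 fold change, 13 were higher and 0 lower at an unadjusted p below 0.05 past the fold, and in 10 the Sox17-RACVECs did not overlap the RACVECs and were higher. No member was called. The median log2 fold change of the list was 1.44, and 0.77 without the library labelled Sox17-RACVEC 2, where 8 members were higher and 2 lower without adjustment. Without RACVEC 2 the median was 1.87. The mean log2(FPKM + 1) of the list was 5.91, 6.68 and 5.49 in RACVECs 1, 2 and 3, 7.12, 8.78 and 6.82 in Sox17-RACVECs and 8.77, 8.91 and 9.15 in Akt-RACVECs. Sox17-RACVECs 1 and 3 thus lay just above RACVEC 2, and the library labelled Sox17-RACVEC 2 lay with the Akt-RACVECs. In 24 of the 32 genes that library was the highest of the Sox17-RACVECs.

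Esam, an adhesion molecule of EC tight junctions, had 209.6, 188 and 2.36 FPKM in RACVECs and 431, 2115 and 581 FPKM in Sox17-RACVECs (log2 fold change 3.99, SE 1.09, adjusted p = 0.338). Mmrn2, an EC matrix protein, had 53.9, 820.3 and 5.95 FPKM against 1095, 236 and 829.9 FPKM, and the groups overlapped, RACVEC 2 being high. Eng (endoglin), the co-receptor for Bmp9, had 515, 967 and 91.9 FPKM against 1807, 974 and 1442 FPKM. Acvrl1, the type I receptor that acts with endoglin, had 126, 528 and 40.1 FPKM against 678, 583 and 690.0 FPKM, a log2 fold change of 2.21, and was called without RACVEC 2 (adjusted p = 0.0223). For Eng and Acvrl1 each Sox17-RACVEC was above each RACVEC, by little over RACVEC 2. Cdh5, VE-cadherin itself, was expressed in both groups, with 863, 1531 and 1887 FPKM against 1788, 3217 and 1937 FPKM, and the groups overlapped. Tek, the angiopoietin receptor Tie2, had 12.5, 17.1 and 27.9 FPKM against 3.67, 231 and 5.17 FPKM. Flt1, the other receptor for Vegfa, had 34.8, 46.6 and 41.7 FPKM against 23.7, 238 and 18.4 FPKM. For Tek and Flt1 both Sox17-RACVECs 1 and 3 were below every RACVEC, and the library labelled Sox17-RACVEC 2 was far above.

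Among 25 endothelial and blood transcription factors, 2 were higher and 1 lower without adjustment, and the median log2 fold change was 0.47 (0.33). Lyl1, a close relative of Tal1, was listed at 0 in each RACVEC and had 10.3, 122 and 0 FPKM in Sox17-RACVECs. Foxc1, a forkhead factor, had 76.4, 85.5 and 36.3 FPKM against 27.3, 1.12 and 21.1 FPKM and was lower in every Sox17-RACVEC library. Klf4 had 343, 60.5 and 259.8 FPKM against 53.3, 296 and 115 FPKM, with overlapping groups. Of the other SoxF members, Sox7 had 169.8, 284 and 246 FPKM in RACVECs and 309, 438 and 224 FPKM in Sox17-RACVECs. Sox18 had 289.7, 1175 and 329.8 FPKM against 1893, 796 and 1405 FPKM. Both were expressed in all 6 libraries, with overlapping groups. Sox13 had 2.2, 11.97 and 19.2 FPKM against 17.6, 287 and 43.6 FPKM. Sox12 had 35.3, 35.8 and 60.01 FPKM against 13.9, 1.02 and 16.9 FPKM.

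Arterial identity is where Sox17 is best known. The 26 Notch and arterial genes had 3 higher and 2 lower members without adjustment and a median of 0.24 (0.11). Without RACVEC 2 the median was -0.11, with 1 higher and 1 lower member. Notch3, a receptor of mural cells, had 48.04, 9.14 and 20.3 FPKM against 2.31, 0 and 4.04 FPKM (log2 fold change -3.10, adjusted p = 0.434). Mgp, an inhibitor of calcification, ranged from 6057, 12522 and 222 FPKM in RACVECs to 6102, 6.12 and 1728 FPKM in Sox17-RACVECs, and its direction turned without the library labelled Sox17-RACVEC 2 (log2 fold change -2.60 with it, 0.34 without it). Depp1 had 42.9, 11.96 and 1.01 FPKM against 254, 1215 and 9.09 FPKM. Of 14 venous and lymphatic genes, 2 were higher and 1 lower without adjustment, with a median of 0.11 (0.09). Higher members numbered 0 and lower members 1 without the library labelled Sox17-RACVEC 2. The hyaluronan receptor Lyve1 had 15.97, 1.62 and 7.97 FPKM against 11.6, 1363 and 18.7 FPKM. The scavenger receptor Stab1 had 12.8, 92.3 and 2.5 FPKM against 114, 1839 and 21.4 FPKM. In both the high value was that of the library labelled Sox17-RACVEC 2, and Akt-RACVECs had 978, 810.2 and 440.3 FPKM of Lyve1. Ackr1, a chemokine scavenger of venules, had 80.8, 28.5 and 40.8 FPKM in RACVECs and was listed at 0 in each Sox17-RACVEC.

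Tight and gap junction genes (19 tested) had a median of 0.31 (-0.16), with 2 higher and 1 lower without adjustment. Jam2, a junctional adhesion molecule, had 1.51, 1.43 and 8.51 FPKM in RACVECs and 0.95, 2602 and 0 FPKM in Sox17-RACVECs, and its direction turned without the library labelled Sox17-RACVEC 2 (log2 fold change -1.47). Ocln (occludin) had 0.9, 17.7 and 2.02 FPKM against 32.9, 13.1 and 6.84 FPKM. Cdh11, a cadherin of mesenchyme, had 116, 0.65 and 44.9 FPKM against 0.29, 0.22 and 0.33 FPKM. Among 19 basement membrane genes, 1 was higher, namely Col18a1, and 1 was lower, namely Col15a1 (132, 1.4 and 37.3 FPKM against 1.05, 0 and 0.49 FPKM), without adjustment. Nid2 had 93.3, 65.7 and 52.6 FPKM against 38, 0.34 and 10.1 FPKM.

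The mesenchymal and fibroblast genes were the list with the largest number of lower members. Of 27 tested, 26 had a negative log2 fold change, 11 were lower and 0 higher without adjustment, and in 13 the Sox17-RACVECs were lower without overlap. No member was called in limma. The median log2 fold change was -3.88, -3.58 over the 26 genes not at 0 throughout a group, and -2.07 without the library labelled Sox17-RACVEC 2, where 4 members were lower without adjustment. Without RACVEC 2, 15 members were lower and the median was -4.44. The mean log2(FPKM + 1) of the list was 8.09, 5.66 and 7.35 in RACVECs and 4.93, 0.98 and 4.70 in Sox17-RACVECs, so the groups did not overlap, and 4.08, 2.51 and 0.76 in Akt-RACVECs. RACVEC 2 was the lowest RACVEC in 19 of the 27 genes, and the library labelled Sox17-RACVEC 2 the lowest Sox17-RACVEC in 25, with 18 at 0.

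Bgn (biglycan), a small proteoglycan of the matrix, had 2443, 675 and 2679 FPKM in RACVECs and 319, 0.65 and 52.1 FPKM in Sox17-RACVECs (log2 fold change -5.76, SE 1.73, adjusted p = 0.413). Dcn (decorin), its relative, had 688, 1637 and 502 FPKM against 52.1, 0 and 121 FPKM. Col1a1, a chain of type I collagen, had 1121, 184 and 1254 FPKM against 92.3, 0.67 and 92.1 FPKM. Col3a1 had 1439, 473 and 148 FPKM against 98.8, 0 and 53.7 FPKM. In these 4 genes each Sox17-RACVEC was below each RACVEC. Thy1, a surface marker of fibroblasts, had 1926, 6.87 and 868 FPKM against 3.99, 0 and 39.5 FPKM. Pdgfra, the receptor for Pdgf-A, had 271, 4.47 and 85.5 FPKM against 5.43, 4.26 and 3.97 FPKM. For both, RACVEC 2 lay at the level of the Sox17-RACVECs and the groups overlapped. Of 10 smooth muscle genes, 1 was higher and 0 lower without adjustment, with and without the library labelled Sox17-RACVEC 2. The median of the list was -1.07, and 0.47 without that library. Their summed FPKM was 3362, 1127 and 2942 in RACVECs and 2626, 492 and 5128 in Sox17-RACVECs, so Sox17-RACVEC 3 was above every RACVEC. Acta2, smooth muscle actin, had 1057, 132 and 197 FPKM in RACVECs and 429.6, 0.27 and 359 FPKM in Sox17-RACVECs. Tpm2 had 248, 91.4 and 299 FPKM against 216, 0 and 203 FPKM. Myl9 had 339, 14.6 and 58.6 FPKM against 141, 0 and 117 FPKM. These 3 contractile genes lay within the range of the RACVECs in Sox17-RACVECs 1 and 3, and at or near 0 in the library labelled Sox17-RACVEC 2.

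Of the 12 Vegf, angiopoietin and apelin ligands, 5 were lower and 0 higher without adjustment, with a median of -1.39 (-1.17). Lower members numbered 2 and higher members 1 without the library labelled Sox17-RACVEC 2. Angpt1, the agonist of Tek, had 56.4, 8.65 and 7.12 FPKM in RACVECs and 0.56, 0 and 0 FPKM in Sox17-RACVECs. Its antagonist Angpt2 had 272, 85.9 and 57.8 FPKM against 43.4, 2.14 and 6.6 FPKM. Vegfd, a ligand of the lymphatic receptor, had 57.6, 42.4 and 44.1 FPKM against 9.56, 2.77 and 6.17 FPKM. For these 3 ligands the groups did not overlap. Vegfa had 392, 96.3 and 281 FPKM against 79.3, 112 and 102 FPKM, with overlap at RACVEC 2, which was low.

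Matrix proteases and inhibitors (23 tested) had 5 lower and 0 higher members without adjustment and a median of -1.13 (-1.74). Lower members numbered 6 and higher members 1 without the library labelled Sox17-RACVEC 2. Their summed FPKM was 13754, 6530 and 11524 in RACVECs and 7953, 9602 and 19111 in Sox17-RACVECs over the whole list, and so did not go one way. Mmp13, a collagenase, had 3165, 12.7 and 91.9 FPKM in RACVECs and 0, 4.71 and 2.39 FPKM in Sox17-RACVECs. Serpinf1 had 1032, 372 and 662 FPKM against 548, 0 and 17.8 FPKM. Of 19 imprinted and growth factor genes, 6 were lower and 0 higher, with a median of -2.73 (-2.10) and of -3.03 over the 17 not at 0 throughout a group. Without the library labelled Sox17-RACVEC 2, 1 was lower. Igf2, the imprinted fetal growth factor, had 7979.6, 4.1 and 2813 FPKM against 2.36, 111 and 1.78 FPKM and was called without RACVEC 2 (log2 fold change -8.87, adjusted p = 0.0255). Fgf7, a growth factor for epithelia, had 691, 191 and 367 FPKM against 28.7, 1.34 and 53.8 FPKM. The imprinted non-coding RNA Meg3 had 104, 42.2 and 10.7 FPKM against 1.71, 0 and 8.08 FPKM.

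Among 29 Wnt and β-catenin pathway genes, 6 were lower and 0 higher without adjustment, and 23 had a negative log2 fold change. The median was -0.66 (-0.94), and -0.56 over the 25 genes not at 0 throughout a group. Lower members numbered 5 and higher members 2 without the library labelled Sox17-RACVEC 2. Rspo3, like Rspo2 an amplifier of Wnt signals, had 61.7, 14.04 and 13.4 FPKM in RACVECs and was listed at 0 in each Sox17-RACVEC. Sfrp1, a secreted Wnt antagonist, had 885, 0.66 and 279.6 FPKM against 7.97, 0 and 0.53 FPKM. Dkk3, of another family of secreted antagonists, had 229.8, 0.64 and 78.6 FPKM against 0.79, 0 and 0 FPKM. For both, RACVEC 2 was near the Sox17-RACVECs and the groups overlapped. Fzd1, a Wnt receptor, had 99.9, 56.4 and 93.1 FPKM against 8.59, 13.2 and 12.2 FPKM without overlap. The summed FPKM of the list was 3625, 2569 and 3784 in RACVECs and 6035, 1403 and 4274 in Sox17-RACVECs, and so did not go one way.

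Of 31 Bmp and Tgf-β pathway genes, 2 were higher, namely Eng and Acvrl1, and 4 lower without adjustment, and the median was -0.69 (-0.47). Without the library labelled Sox17-RACVEC 2, 4 were higher and 4 lower. Besides Grem1, the lower genes with all libraries were Tgfbr3, Tgfbi and Bmpr1a. Tgfbi, an extracellular protein named for its induction by Tgf-β, had 871, 110.0 and 85.03 FPKM against 23.4, 0 and 5.63 FPKM. Bmpr1a, a Bmp receptor, had 251, 77.9 and 287 FPKM against 36.3, 0 and 11.6 FPKM and was also at 0 in Akt-RACVECs 2 and 3 (147, 0 and 0 FPKM). Both cultures grew with an inhibitor of Tgf-β signalling. The 12 hedgehog pathway genes had a median of -0.14 (0.11), and 1 member, Gas1, was lower without adjustment. The ligand Dhh had 8.62, 61.9 and 72.3 FPKM against 157, 39.8 and 145 FPKM. The co-receptor Boc had 12.8, 39.6 and 28.6 FPKM against 25.5, 1.9 and 21.5 FPKM.

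**Figure D5:**
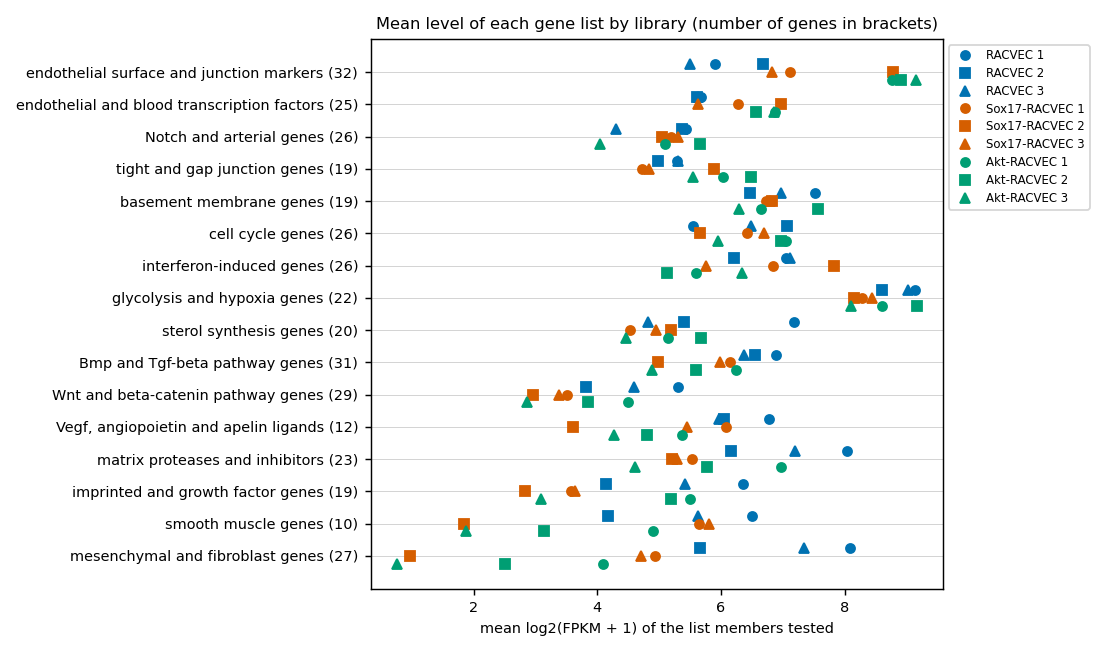
Mean log2(FPKM + 1), on the x axis, of the members of 16 gene lists in each RACVEC, Sox17-RACVEC and Akt-RACVEC library, with lists on the y axis and the number of genes tested in brackets. For the mesenchymal list the 3 RACVECs lie between 5.66 and 8.09 and the Sox17-RACVECs between 0.98 and 4.93, and Sox17-RACVEC 2 (orange square) lies next to Akt-RACVEC 3 (green triangle).

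Growth and stress programmes had no called member in limma. None of 26 cell cycle genes or 20 cell cycle inhibitors and p53 targets passed without adjustment, with medians of -0.03 (0.17) and -0.27 (-0.09). The library labelled Sox17-RACVEC 2 was the lowest Sox17-RACVEC in 23 of the 26 cell cycle genes, and RACVEC 2 the highest RACVEC in 25. Ccna2, cyclin A2, had 75.7, 224 and 143 FPKM against 135, 41.5 and 159.7 FPKM. Rrm2 had 358, 527 and 725 FPKM against 287, 60.8 and 476 FPKM. None of the 26 interferon-induced genes or 18 immediate early genes passed without adjustment, with medians of -0.06 (-0.49) and -0.13 (-0.84). Without RACVEC 2 these medians were -0.20 and -1.07, and 1 immediate early gene was lower without adjustment. The library labelled Sox17-RACVEC 2 was the highest Sox17-RACVEC in 24 of the interferon-induced and 15 of the immediate early genes. Without it 20 and 13 of them had a negative log2 fold change, against 14 and 11 with it. Irf7 and Ccn1, which are given next, lay above the RACVECs in every Sox17-RACVEC and do not stand for their lists. Irf7, a regulator of interferon genes, had 286, 175 and 286 FPKM against 317, 1488 and 558 FPKM. Ccn1, a matrix-associated early gene, had 3043, 983 and 1918 FPKM against 3514, 5185 and 3904 FPKM. Of 20 sterol synthesis genes 19 had a negative log2 fold change, with a median of -0.79 (-1.07), and 1 was lower without adjustment. With all libraries, 3 were lower without overlap. Without the library labelled Sox17-RACVEC 2, 3 were lower without adjustment, as were 3 without RACVEC 2. Their mean log2(FPKM + 1) was 7.18, 5.40 and 4.82 in RACVECs and 4.53, 5.18 and 4.95 in Sox17-RACVECs, so RACVEC 1 alone was high. Of 22 glycolysis and hypoxia genes 20 had a negative log2 fold change, 2 were lower without adjustment and 7 lower without overlap, with a median of -0.61 (-0.40). Gapdh had 333, 243 and 305 FPKM against 175, 157 and 177 FPKM. Bnip3, a mitophagy protein induced by hypoxia, had 542, 323 and 829 FPKM against 128, 294 and 167 FPKM.

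Markers of other cells that a culture could hold differed between libraries. Of 6 macrophage and leukocyte markers above the filter, 2 were lower without adjustment, with a summed FPKM of 809, 865 and 876 in RACVECs and 1069, 101 and 53.8 in Sox17-RACVECs. Cd14 had 155, 317 and 724 FPKM against 44.7, 2.26 and 16.9 FPKM, whereas Lyz2 had 14.2, 304 and 8.95 FPKM against 916, 98.1 and 25.8 FPKM. The 5 epithelial and amnion markers above the filter summed to 339, 131 and 1197 FPKM in RACVECs and 129, 0 and 57.96 FPKM in Sox17-RACVECs. In MACs, the cells of origin, they summed to 155.6, 20.01 and 148.9 FPKM, so they were not highest there. Krt19 had 285, 129 and 1159 FPKM against 105, 0 and 57.2 FPKM. The part of these markers in the lower gene lists was not tested. No erythroid marker passed the filter, and of 2 pluripotency markers that did, neither passed without adjustment. Of 9 endoderm genes tested none passed without adjustment in either direction, and the median was 0.34 (0.15).

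The difference between Sox17-RACVECs and Akt-RACVECs was tested in the same fit. No gene was called in either direction (0.0% each), with 193 higher (1.47%) and 369 lower (2.81%) at an unadjusted p below 0.05 past the fold, and 27 higher and 69 lower by the study's criterion. Without the library labelled Sox17-RACVEC 2, 142 genes were called higher (1.08%) and 252 lower (1.92%) in Sox17-RACVECs. The comparisons of Sox17-RACVECs and of Akt-RACVECs with RACVECs share the RACVEC libraries, so their values are given side by side only. The endothelial surface list had a median of 1.44 for Sox17-RACVECs and 2.68 for Akt-RACVECs against RACVECs, and the mesenchymal list -3.88 and -4.33. Without the library labelled Sox17-RACVEC 2 the medians for Sox17-RACVECs were 0.77 and -2.07.

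The mean profile of the 3 Akt-LECs was used to ask how near the converted cells came to cultured endothelium. Pearson's r over all genes was 0.945, 0.961 and 0.949 for RACVECs 1, 2 and 3 and 0.957, 0.956 and 0.956 for the Sox17-RACVECs. The mean difference was 0.00451 (two-sided exact permutation test, p = 0.4, where 3 libraries against 3 allow no p below 0.1). RACVEC 2 was closer to Akt-LECs than any Sox17-RACVEC. MACs had r between 0.896 and 0.906.

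Over all 24 libraries, the genes whose levels followed Sox17 most closely were Tnfaip1 (r = 0.837), Kcnq1 (r = 0.828), Esam (r = 0.820), Tmem88 (r = 0.816) and Garre1 (r = 0.816), given as a description over libraries that share groups. Tnfaip1 had 192, 314 and 265 FPKM in RACVECs and 425, 351 and 449.7 FPKM in Sox17-RACVECs. Tmem88 had 7.85, 37.7 and 4.93 FPKM against 50.8, 224 and 57.1 FPKM. Kcnq1, a potassium channel, had 2.71, 9.36 and 2.05 FPKM against 17, 30.9 and 15.4 FPKM. Garre1 had 85.5, 137 and 88.1 FPKM against 166, 477 and 154 FPKM. Sox17 is at 0 in the RACVECs and above 0 in the Sox17-RACVECs, so genes chosen in this way tend to lie apart between these groups.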

How the data were processed

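RNA of cultured mouse cells was measured by sequencing of poly(A) libraries, with paired reads of 51 bases. The authors mapped reads with TopHat to mm9 and deposited FPKM values from Cufflinks, made with upper-quartile normalisation and bias correction, for 27583 RefSeq transcripts in each library. Versions are not given in the sources used here. Transcripts were summed per current mouse gene symbol (26930 matched, 653 kept under their accession), giving 22282 genes. Read depth is unknown, an FPKM of 0 may be a failed estimate, and summed FPKM lay between 1742846 and 2072167 in the 6 libraries. No 2 libraries held identical values.

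Groups were taken from the sample titles. The 24 libraries of 8 groups were fitted together with limma 3.58.1 (R 4.3.3) on log2(FPKM + 1), with two-sided moderated tests. Benjamini-Hochberg adjustment took in the 13124 genes that averaged 1 FPKM or more in the 6 libraries. A fold change is on that scale and understates the change of low genes. No fold change is given where a group was listed at 0. The p-values of this fit rest on the spread between cultures within all 8 groups, not within RACVECs and Sox17-RACVECs alone. Named genes were the introduced factors, the 8 genes the study names for Sox17, the 15 genes in each direction described in the text, from each list every called member and the 3 members of largest change that averaged at least 10 FPKM, and the 5 genes most like Sox17. Of these, 1 gene is not reported here. Further list members named in the text were chosen after their values were seen. The gene lists and these members were chosen with earlier results of these data known. Gene positions are those of the GENCODE annotation of mm9, and promoters are those of RefSeq. Alternatives were other pseudocounts (0.1 and 10), no filter or a mean of at least 10, the 2 groups alone, a replicate block, scaling by the median, transcripts kept apart, the criterion of the study's methods (with an unequal-variance test and a pseudocount of 1), and leaving out each library. The script was tested on simulated data. Other calculations used Python 3.11.15 with pandas 2.3.3, scipy 1.17.1 and matplotlib 3.10.9.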

Additional observations from a re-analysis of the deposited data

How the results depend on the processing

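The counts of called genes rested on single libraries and on the fit. In Sox17-RACVECs against RACVECs, genes called higher numbered 1 with a pseudocount of 0.1, namely Sox17 (adjusted p = 0.0389 in limma). They numbered 50 by the criterion of the study's methods, and 0 to 19 with 1 library left out. Genes called lower numbered 2 with a pseudocount of 0.1, 0 with a minimum mean FPKM of 10, 5 in a fit of the 2 groups alone, 2 with transcripts kept apart, 101 by the study's criterion, and 1 to 36 with 1 library left out. Correlations of deviations from the group means were 0.019, -0.107 and -0.05 between same-numbered libraries. Between differently numbered libraries they ran from -0.091 to 0.114. They thus showed no pairing by number, but with 3 libraries a group they cannot exclude it. The 2-group fit with the replicate block called 0 genes lower (smallest adjusted p in limma 0.0881). On simulated data that fit recovered 0 of 100 genes changed by 2 on the log2 scale and 0 of 100 changed by 3. Its count therefore cannot tell whether the libraries were paired. In Sox17-RACVECs against Akt-RACVECs, genes called higher numbered 1 with a pseudocount of 0.1, 27 by the study's criterion and 0 to 142 with 1 library left out. Genes called lower numbered 1 and 2 with pseudocounts of 0.1 and 10, 69 by the study's criterion and 0 to 252 with 1 library left out. The difference in similarity to Akt-LECs turned to -0.00279 with Spearman's correlation, was 0.0244 over the genes tested and lay between 0.0013 and 0.00911 with 1 library left out. The cause of these changes was not tested.

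Of 1453 values of the 104 genes named by rule under the alternatives, 1416 kept direction and side of the threshold, 17 gained a call, 5 lost it, all of Crp, and 15 turned direction. The turned values were those without the library labelled Sox17-RACVEC 2, the same in both fits, or for Klf4 without Sox17-RACVEC 1. With 1 library left out, log2 fold changes ran from -3.83 to 0.38 for Acta2, -0.89 to 0.12 for Ccna2, -1.14 to 3.16 for Erg, -1.47 to 4.20 for Jam2, -1.28 to 0.072 for Klf4, -4.53 to 0.34 for Mgp, -2.65 to 0.92 for Myl9 and -3.73 to 0.15 for Tpm2. The fit of the 2 groups without that library, chosen after seeing the data, called Grem1 alone. With 3 libraries a group and unknown depth, differences in genes near 0 were not resolved.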

Other observations

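Genes of the Hoxb cluster, which encodes positional identity along the body axis, lay apart between the groups, and they were chosen after their values were seen. Hoxb7 had 4.18, 76.2 and 0 FPKM in RACVECs and 159, 338 and 155 FPKM in Sox17-RACVECs. Hoxb4 had 1.08, 16.1 and 0 FPKM against 22.7, 36.3 and 24.2 FPKM. Hoxb8 had 1.55, 30.9 and 0 FPKM against 59.6, 269 and 71.8 FPKM. RACVEC 2 was intermediate and RACVECs 1 and 3 were at or near 0. None was called in limma with all libraries (adjusted p = 0.331 for Hoxb7), and Hoxb2, Hoxb3, Hoxb4, Hoxb6, Hoxb7 and Hoxb8 were called higher without RACVEC 2. In MACs Hoxb7 had 6.43, 2.95 and 112 FPKM, so isolates of the cells of origin differed in the same gene, and in Akt-RACVECs 280.3, 284 and 306 FPKM.

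The 7 genes called higher without the library labelled Sox17-RACVEC 2 included 5 of 1 multigene family whose near-identical copies share reads, namely Speer4a, Speer4b, Gm10220, Gm10471 and 5031410I06Rik. Speer4a had 0, 2.18 and 0 FPKM in RACVECs and 90.5, 0 and 23.99 FPKM in Sox17-RACVECs. Tlx1, a homeobox gene, was listed at 0 in each RACVEC and had 10.9, 0 and 9.01 FPKM in Sox17-RACVECs. Smurf2, a ubiquitin ligase that acts on Smads, had 122, 132 and 158 FPKM against 343, 177 and 602 FPKM without overlap. Sat1, an enzyme of polyamine breakdown, was lower only in Sox17-RACVECs 1 and 3, with 1359, 128 and 623 FPKM in RACVECs and 15.7, 328 and 7.46 FPKM in Sox17-RACVECs. Akt1 had 607, 694 and 644 FPKM in RACVECs and 884, 1323 and 916 FPKM in Sox17-RACVECs, against 1280.5, 872 and 920.4 FPKM in Akt-RACVECs.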
